A study of Saccharomyces cerevisiae with 44 samples.

Results

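Ste12 is the transcription factor at the end of the yeast mating pheromone pathway, and the comparison described here asks how the response to pheromone differs in cells that lack it. The measured quantity is the response difference, the change in RNA after alpha-factor in the deletion strain minus the same change in the wild type. It was read from 16 of the 44 RNA-seq samples of the series, chosen by their labels as the wild type and the ste12 deletion of batches 1 and 2. There were 4 libraries in each of the 4 groups, and batch 1 supplied the first 2 replicates of each group and batch 2 the last 2.

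The wild type, labelled WT, was VM05, a budding yeast (Saccharomyces cerevisiae) strain of mating type MATa. Its genotype comprised the nutritional markers ade1, his2, trp1 and ura3, the mutations bar1, cln1, cln2 and cln3, and GAL-CLN3 placed at leu2 with LEU2 (leu2:LEU2::GAL-CLN3). The deletion strain, labelled ∆Ste12, was a VM05 derivative carrying ste12::KanMX. All groups therefore shared the bar1 mutation, which removes the protease that degrades alpha-factor, and those in CLN1, CLN2 and CLN3, which encode G1 cyclins. Cells grew at 30 °C on galactose, which drives the GAL-CLN3 copy, and were moved to glucose for 3 h to arrest in G1. One portion of each culture was frozen at that point (0 h), and the other received 20 µM alpha-factor for 60 min. Treatment and 1 further hour in glucose therefore changed together in these 16 libraries. A separate WT experiment of the series, batch 4, sampled untreated and treated cells both at 60 min with 2 libraries each, and is used below where elapsed time matters. The labels do not say whether replicates came from separate cultures, so the p-values measure the spread between these samples. RNA came from whole cultures, so fewer responding cells and less RNA per cell cannot be told apart.

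As background, alpha-factor binds the receptor Ste2 on MATa cells and releases a G protein that activates a kinase cascade ending in the MAP kinases Fus3 and Kss1. These kinases relieve Ste12 from its inhibitors Dig1 and Dig2, and Ste12 then activates genes through the pheromone response element TGAAACA, alone or with partners such as Mcm1, Tec1 and Kar4. Its targets build the mating projection, fuse the cells and their nuclei, and feed back on the pathway itself, while Far1 holds the cell cycle in G1.

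The libraries held between 4.25 and 12.7 M counts (M, 1000000). Levels are given as CPM, counts per 1000000 of the library total after TMM normalization, edgeR's scaling between libraries. The deleted gene checked the labels: STE12 stood at 214, 210.4, 175 and 199.7 CPM in replicates 1 to 4 of WT at 0 h. After alpha-factor it stood at 336, 296, 326 and 336 CPM in WT. In ∆Ste12 it stood at 0.792, 0.266, 4.2 and 1.79 CPM at 0 h and at 0.513, 0.408, 4.95 and 6.24 CPM after alpha-factor, with the higher values in batch 2. The WT mean was thus 113-fold above the ∆Ste12 mean at 0 h and 107-fold above it after treatment. The labelled mating type a was present, with STE2, MFA1, MFA2, STE6 and AGA2 above 1 CPM in every group and BAR1 under 1 CPM in every group. The summed a-specific markers ran from 3387 to 5475 CPM in untreated WT and from 758.2 to 861.8 CPM in untreated ∆Ste12. The 5 alpha-specific markers summed to 393.3 to 442.8 CPM in untreated WT and to 89.29 to 107.2 CPM in untreated ∆Ste12. Transposon features took 15.4 to 23% of counts in untreated WT and 26 to 33.9% in treated WT, against 10.8 to 15.2% and 12.6 to 20.2% in ∆Ste12. Ribosomal RNA took 0.156 to 5.08%. CLN1 and CLN2 reads were present in all groups, and the labels do not say which part of these genes the mutations remove.

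Of 6161 features tested, 2214 had a response difference that passed an adjusted p of 0.05 (edgeR's quasi-likelihood test with Benjamini-Hochberg adjustment), which is 35.9%. In 1130 of them (18.3% of those tested) the difference was positive, and in 1084 (17.6%) it was negative. Responses and differences are fitted log2 values throughout, and the value after ± is the standard error (SE) of the fit. A single value in parentheses after a gene is its response difference unless said otherwise. A negative difference in an induced gene means a smaller induction in ∆Ste12, and a positive difference in a repressed gene means a smaller repression. The large differences were mostly negative: 275 features differed by at least 2-fold downward (4.46%) and 104 upward (1.69%). In WT 3637 features changed (59%; 29% rose and 30% fell) and in ∆Ste12 1986 (32.2%; 17.6% rose and 14.6% fell). WT changes of at least 2-fold numbered 473 upward (7.68%) and 167 downward (2.71%), against 80 (1.3%) and 30 (0.487%) in ∆Ste12. At 0 h, 22.5% of features differed between the strains, 11.9% with a lower level in ∆Ste12. Among the 2214, 1305 changed in WT without a called change in ∆Ste12, 459 changed in the same direction in both strains but less in ∆Ste12, and 166 changed in opposite directions. In 206 the ∆Ste12 response alone was called, in 12 it was the larger of the 2, and in 66 neither response was called. The sign was the same in both batches in all 2211 of these features that were tested in each batch alone. Because both batches entered these calls, that agreement was largely fixed by the selection. Of 1490 differences called in batch 1 alone and measured in batch 2, 1462 (98.1%) had the same sign there. Scaling by library totals, without the TMM normalization used otherwise, raised the median response difference of all features from 0.01 to 0.16 on the log2 scale and gave 1710 positive and 663 negative differences. Small differences therefore depend on the scaling. List counts given below with library totals are to be read against these 1710 positive and 663 negative of 6161 features. The median difference turned from negative to positive with library totals in 9 lists, all with medians near 0: filamentous growth, DNA replication, cohesion, histones, daughter separation, cell wall, ergosterol, glycolysis and fermentation, and eisosome.

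**Figure D1:**
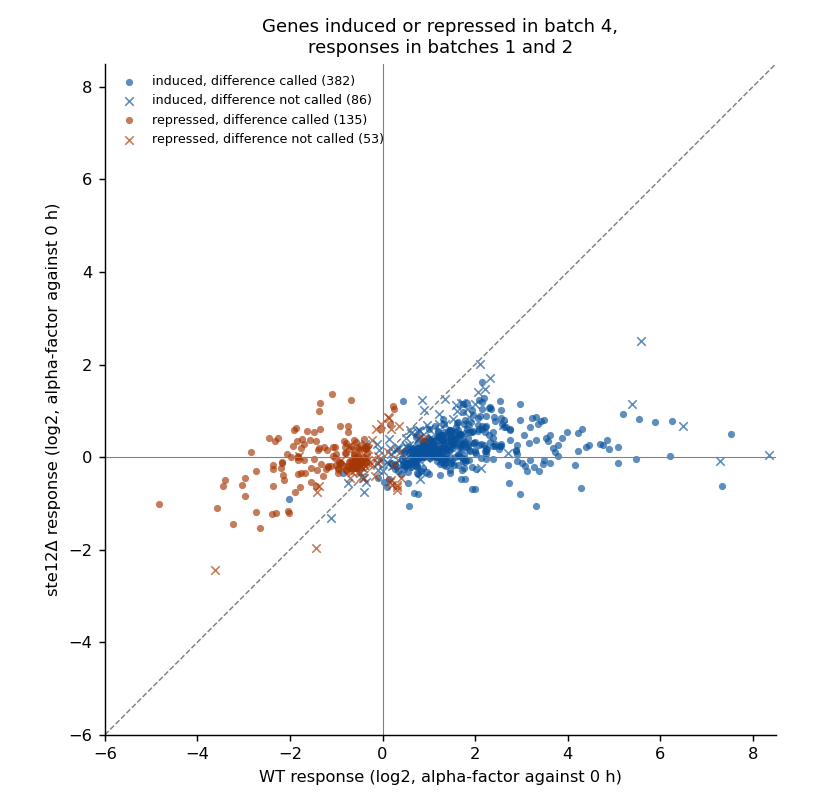
The log2 response to alpha-factor in WT (horizontal axis) is plotted against that in ∆Ste12 (vertical axis, ste12Δ in the plot) for the genes induced or repressed in the separate WT experiment, with the diagonal marking equal responses. Dots are genes with a called response difference and crosses those without. Most points lie nearer the line of no ∆Ste12 response than the diagonal, and the median induced gene has a response of 1.38 in WT and 0.20 in ∆Ste12.

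To read the difference in genes that were not chosen on these libraries, induced and repressed genes were taken from batch 4, with a called change of at least 2-fold between treated and untreated cells of equal age. In batch 4, 57.8% of features were called (28.9% higher and 28.9% lower), 7.81% at least 2-fold higher and 3.19% at least 2-fold lower. Of the 468 induced genes, 379 (81%) had a smaller response in ∆Ste12, against 17.6% of all features. Their induction was not called in ∆Ste12 for 250 of the 379 and was still called for 129. The median log2 response of the 468 was 1.38 in WT and 0.20 in ∆Ste12. The share with a smaller response was 162 of 220 genes (73.6%) where the batch 4 induction was between 1 and 1.5 log2 units. It was 88 of 105 (83.8%) between 1.5 and 2, 75 of 82 (91.5%) between 2 and 3, and 54 of 61 (88.5%) at 3 or more. The difference was not called for 86 induced genes, 8 of which had a group with at most 3 counts in every library, and was positive for 3. Of the 188 repressed genes, 135 (71.8%) had a positive difference, against 18.3% of all features, and none had a called negative one. Of these 135, 130 had a called fall in WT of batches 1 and 2. Repression was not called in ∆Ste12 for 105 of the 135, and 21 of the 135 rose there. The median log2 response of the 188 was -0.78 in WT and -0.08 in ∆Ste12. By size of the batch 4 fall, a positive difference was called for 81 of 119 (68.1%) between 1 and 1.5 log2 units and 25 of 27 (92.6%) between 1.5 and 2. The counts were 22 of 25 (88%) between 2 and 3 and 7 of 17 (41.2%) at 3 or more. In that last group the median WT response of batches 1 and 2 was 0.18. The 53 repressed genes without a called difference include 10 ribosomal RNA features, whose share of the 2 untreated batch 4 libraries was 0.0548 and 1.57%.

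The equal-age experiment was also read for genes grouped by their calls in batches 1 and 2. The differences between these shares were not tested. Of 720 genes that rose in WT, had a negative difference and did not rise in ∆Ste12, 636 (88.3%) also rose in batch 4, against 29.1% of all features. Of 254 that rose in both strains but less in ∆Ste12, 247 (97.2%) did. Of 398 genes that rose in both strains with no called difference, 214 (53.8%) did, with a median response of 0.28 at equal age against 0.71 for the first group and medians of 0.52 and 0.63 in WT of batches 1 and 2. Among genes that fell in WT and not in ∆Ste12, 599 of 751 (79.8%) with a positive difference fell in batch 4. Among those that fell in both but less in ∆Ste12, 188 of 205 (91.7%) did, and among those that fell in both without a called difference 249 of 427 (58.3%) did, against 29.4% of all features. For changes shared by both strains, treatment and the hour in glucose cannot be told apart in batches 1 and 2.

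Promoters are shown for 5 of the 7 genes with TGAAACA among the 10 most negative differences, namely the 3 with several copies and the most negative of the others, because the element is the known binding site of the missing factor. Each sequence covers 250 bases before to 50 bases after the start of the coding gene, read from the RefSeq sequence of build R64, 5′ to 3′ on the strand of the gene, with every copy of the element on either strand in capitals. PRM1 (window chrXIV:110667-110966, plus strand) held 3 copies, 181, 170 and 159 bases before the start. FUS2 (chrXIII:736676-736975, plus strand) held 2, at 221 and 200 bases, and SPO11 (chrVIII:64108-64407, minus strand) held 2, at 226 and 179 bases. PRM3 (chrXVI:183007-183306, minus strand) held 1 at 182 bases and PRM2 (chrIX:284950-285249, minus strand) 1 at 142 bases.
PRM1: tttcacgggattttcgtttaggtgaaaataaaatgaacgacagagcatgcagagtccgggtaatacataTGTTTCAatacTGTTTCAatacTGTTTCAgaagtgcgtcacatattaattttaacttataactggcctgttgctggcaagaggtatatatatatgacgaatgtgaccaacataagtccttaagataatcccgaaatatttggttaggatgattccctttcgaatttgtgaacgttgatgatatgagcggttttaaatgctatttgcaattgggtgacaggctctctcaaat
FUS2: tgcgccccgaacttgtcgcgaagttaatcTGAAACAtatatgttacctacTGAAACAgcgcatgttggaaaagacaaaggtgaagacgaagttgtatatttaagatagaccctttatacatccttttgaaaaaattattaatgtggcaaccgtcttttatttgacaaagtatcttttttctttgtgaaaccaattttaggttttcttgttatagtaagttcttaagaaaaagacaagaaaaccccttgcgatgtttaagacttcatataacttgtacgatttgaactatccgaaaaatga
SPO11: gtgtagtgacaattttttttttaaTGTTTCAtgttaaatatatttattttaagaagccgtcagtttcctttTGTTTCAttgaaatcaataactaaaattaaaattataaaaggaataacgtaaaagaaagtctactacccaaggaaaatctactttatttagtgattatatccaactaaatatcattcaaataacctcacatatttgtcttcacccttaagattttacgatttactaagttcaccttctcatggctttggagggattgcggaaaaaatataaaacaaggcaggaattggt
PRM3: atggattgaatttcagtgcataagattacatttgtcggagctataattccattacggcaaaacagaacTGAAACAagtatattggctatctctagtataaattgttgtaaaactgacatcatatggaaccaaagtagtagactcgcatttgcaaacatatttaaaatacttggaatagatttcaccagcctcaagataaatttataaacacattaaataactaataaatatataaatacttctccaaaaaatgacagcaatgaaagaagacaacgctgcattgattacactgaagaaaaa
PRM2: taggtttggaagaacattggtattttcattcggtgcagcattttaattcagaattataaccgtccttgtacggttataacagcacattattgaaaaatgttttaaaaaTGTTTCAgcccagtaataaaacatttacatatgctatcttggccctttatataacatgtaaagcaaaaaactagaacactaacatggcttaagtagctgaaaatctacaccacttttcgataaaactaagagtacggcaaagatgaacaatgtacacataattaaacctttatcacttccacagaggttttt

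At least 1 copy of TGAAACA on either strand was present in 7 of the 10 most negative genes and in none of the 10 most positive. It was present in 42 of 353 promoters (11.9%) of protein-coding induced genes with a smaller response in ∆Ste12 and in 1 of 68 (1.5%) of those without a called difference. All protein-coding genes tested had it in 409 of 5661 windows (7.2%), and repressed genes with a positive difference in 3 of 128 (2.3%). With 500 bases before the start the shares were 20.4, 8.8, 11.7 and 7.0% in the same order. A match is a description of these letters and not a bound site.

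Genes of cell and nuclear fusion held many of the most negative differences among protein-coding genes above the detection floor of 3 counts. Of 8 cell fusion genes, 5 were induced in WT and all 5 less so in ∆Ste12, where none of the 8 rose. FIG1 (chrII:316968-317864), a membrane protein needed for calcium influx in mating cells, was measured at 8.4, 11.1, 8.76 and 8.99 CPM in untreated WT and at 607, 533, 498 and 584 CPM in treated WT. The ∆Ste12 values were 0.0792, 0.266, 0.981 and 0.389 CPM at 0 h and 0.685, 0.408, 1.13 and 0.976 CPM after alpha-factor. Every treated WT library thus stood above every untreated one, while the ∆Ste12 groups overlapped near the detection limit. FIG1 rose 59.5-fold in WT, and the response difference was -5.14 ± 0.59 log2 units (SE, adjusted p = 3.65e-07).

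PRM1 (chrXIV:110917-112902), which fuses the plasma membranes of mating cells and whose promoter is shown above, was at 39.6, 54.7, 33.5 and 37.8 CPM in untreated WT and at 1266, 1286, 1118 and 1251 CPM in treated WT. In ∆Ste12 it was at 3.48, 1.42, 4.06 and 3.81 CPM at 0 h and 3, 2.72, 4.42 and 4.88 CPM after treatment. The WT groups were far apart and the ∆Ste12 groups overlapped, giving a WT fold of 29.9 and a difference of -4.73 ± 0.35 (adjusted p = 2.13e-10). FUS2 (chrXIII:736926-738959), a fusion regulator of the projection tip, went from 23.8, 33, 32 and 30 CPM to 592, 558, 529 and 556 CPM in WT. Its ∆Ste12 values were 6.33, 5.41, 10 and 9.33 CPM and 7.19, 8.99, 9.2 and 8.88 CPM, again overlapping. The FUS2 difference was -4.09 ± 0.22 (adjusted p = 8.16e-13) against a WT fold of 18.7.

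FUS1 (chrIII:71803-73341), the cell-surface fusion protein long used as a reporter of the pathway, was at 111, 116, 102 and 112 CPM and then 908, 868, 718 and 802 CPM in WT. In ∆Ste12 the values were 12.7, 16, 22.5 and 14.9 CPM and 14.1, 19.9, 19.7 and 20.7 CPM. Every untreated ∆Ste12 library was already below every WT library, with a strain difference of -2.73 at 0 h (adjusted p = 1.58e-12). The response difference was -2.73 ± 0.20 (adjusted p = 2.29e-10). RVS161 (chrIII:130745-131542), a membrane-curving partner of Fus2, rose 2.59-fold in WT, from 154, 158, 145 and 144 CPM to 439, 399, 354 and 367 CPM. In ∆Ste12 it was at 118, 112, 115 and 119 CPM and 92.9, 89.9, 109 and 112 CPM, with overlapping groups and a difference of -1.57 ± 0.11 (adjusted p = 8.28e-11). KEL1, a fusion and polarity protein, fell in both strains, with a difference of 0.24, and KEL2 and FIG4 had no called difference.

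**Figure D2:**
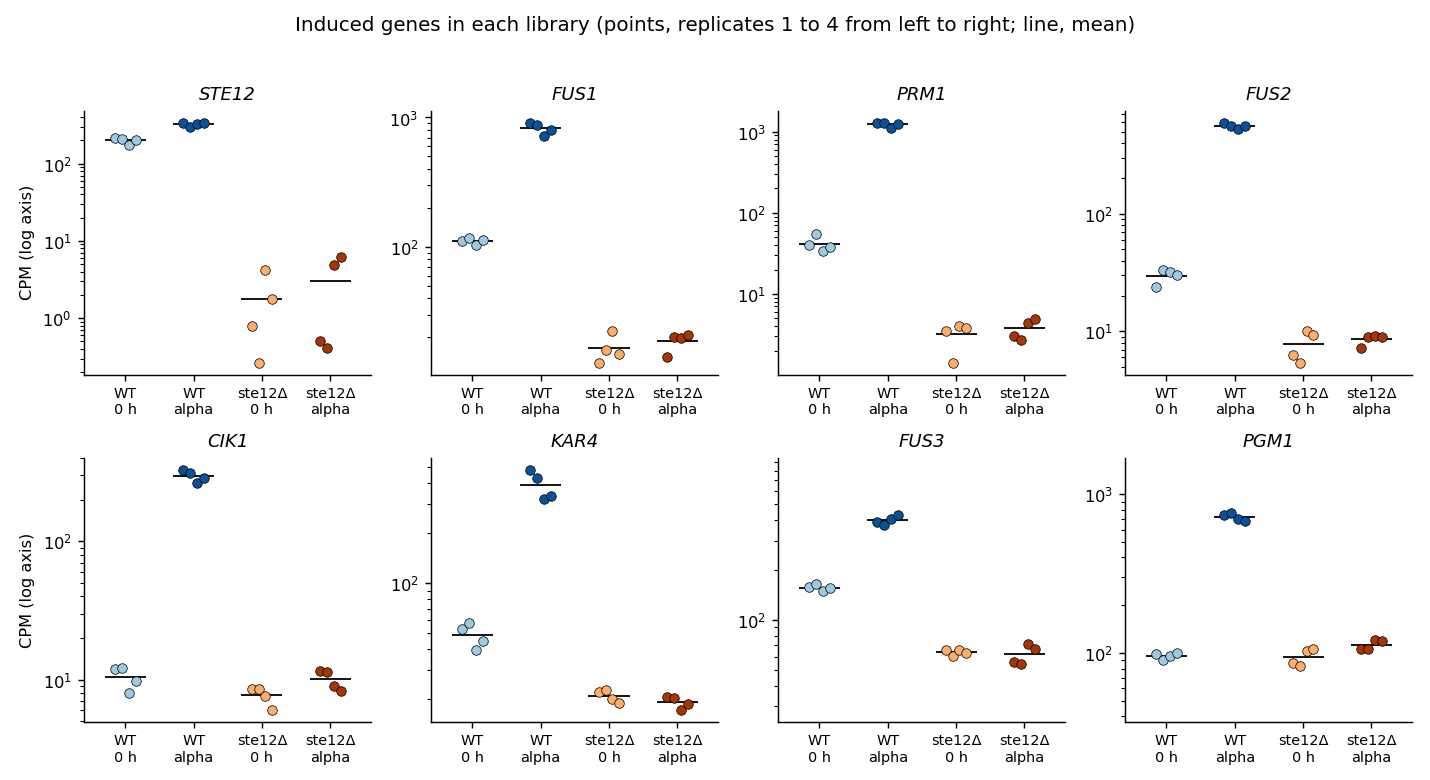
CPM in every library are plotted on log axes for STE12, FUS1, PRM1, FUS2, CIK1, KAR4, FUS3 and PGM1, with points for replicates 1 to 4 from left to right in each of the 4 groups and a line at the group mean (ste12Δ stands for ∆Ste12). Treated WT libraries stand above untreated ones in all 8 panels, and the ∆Ste12 groups lie close together, as for PRM1 with 3.19 and 3.76 CPM on average.

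Nuclear fusion genes followed the same pattern: 7 of 14 rose in WT, and the difference was negative for 8 and positive for 2. PRM3 (chrXVI:182655-183056), which fuses the nuclear envelopes, had the most negative difference among those genes. It was at 7.93, 7.4, 3.34 and 4.97 CPM in untreated WT and at 324, 272, 209 and 214 CPM in treated WT, against 0.158, 0, 0.841 and 0.311 CPM and 0.171, 0.136, 0.347 and 0.878 CPM in ∆Ste12. The WT groups did not overlap, and the ∆Ste12 groups did, all below 1 CPM. The WT fold was 44.7 and the difference -5.51 ± 0.85 (adjusted p = 2.29e-05), and the ∆Ste12 values rest on few counts.

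CIK1 (chrXIII:659745-661529), the partner of the kinesin Kar3 that pulls the nuclei together, gave the clearest case at a level well above detection. WT values were 11.9, 12.1, 8.03 and 9.84 CPM at 0 h and 328, 310.2, 265 and 286 CPM after alpha-factor. In ∆Ste12 they were 8.63, 8.61, 7.57 and 6.07 CPM and 11.6, 11.3, 8.94 and 8.29 CPM. The untreated groups of the strains overlapped, every treated WT library was above every other library, and CIK1 rose 28.7-fold in WT and 1.3-fold in ∆Ste12. The difference was -4.47 ± 0.12 (adjusted p = 8.75e-18).

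KAR3 (chrXVI:815734-817923) was at 32.9, 27.6, 28.8 and 38.8 CPM and then 428, 393, 417 and 402 CPM in WT, and at 20.9, 16.8, 20.2 and 21 CPM and 24.1, 22.1, 21.9 and 22.5 CPM in ∆Ste12. Its WT fold was 12.8 and its difference -3.48 ± 0.13 (adjusted p = 8.56e-16). KAR5, needed for nuclear membrane fusion, had a WT fold of 8.43 and a difference of -3.28 ± 0.20. PRM2, another pheromone-regulated membrane protein of the nuclear fusion list, was at 16.1, 24.2, 14 and 20 CPM and 657, 639.5, 598 and 639 CPM in WT and under 1 CPM in all ∆Ste12 libraries, with a difference of -4.88 ± 0.56 (adjusted p = 3.15e-07). Smaller inductions in ∆Ste12 were also called for JEM1, a chaperone of the endoplasmic reticulum (-0.39), and SEC72, a subunit of the translocon (-0.33). The positive differences were SEC63, also a translocon subunit (0.31), and MPS3, a spindle pole protein (0.30). With library totals, 5 differences of the 14 were negative and 2 positive.

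The other PRM genes, named as pheromone-regulated membrane proteins, gave 6 negative differences of 7. PRM6, a potassium influx regulator, rose from 2.8, 3.53, 1.98 and 3.84 CPM to 153, 152, 141 and 139 CPM in WT and stayed under 1 CPM in ∆Ste12. Its difference of -4.72 ± 1.31 (adjusted p = 0.00697) was not called in batch 1 alone, nor without replicate 3 of untreated ∆Ste12 (-3.84, adjusted p = 0.137). PRM4 (chrXVI:255913-256767) was at 35, 35, 31.5 and 38.1 CPM and 706, 659.8, 530.4 and 558 CPM in WT and at 21.1, 10.3, 34.5 and 43.2 CPM and 17.6, 12.7, 31.9 and 36.1 CPM in ∆Ste12. Its untreated groups overlapped between strains, the WT fold was 17.9, and the difference was -4.33 ± 0.40 (adjusted p = 8.51e-09). PRM8 (-3.49), PRM10 (-2.16), PRM9 (-2.13) and PRM5 (-1.58) followed. PRM10 overlaps YJL107C on the other strand and so is uncertain, because the strand setting of the counting is not given in the sources used here. PRM5 and PRM10 still rose in ∆Ste12, by 0.66 and 0.81 log2 units. PRM7 had no called change in either strain. YNR064C, outside these lists but among the 10 most negative, went from 2.1, 1.01, 2.81 and 2.62 CPM to 41.5, 46.2, 52.3 and 53.2 CPM in WT and was at 1.74, 1.6, 1.89 and 2.33 CPM and 2.48, 1.36, 2.86 and 2.54 CPM in ∆Ste12, a difference of -4.20 ± 0.26.

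Of the 3 agglutinin genes, whose products glue mating cells together, all were lower in untreated ∆Ste12 and 2 responded less. FIG2, an adhesin of the mating projection, was at 1295, 1259, 1214 and 1384 CPM in untreated WT and 21588, 18240, 16097 and 19348 CPM in treated WT, against 169.9, 168, 222 and 212 CPM and 222, 246, 265 and 297 CPM in ∆Ste12. It rose 14.6-fold in WT and 1.33-fold in ∆Ste12 (difference -3.46 ± 0.21, adjusted p = 4.18e-12). AGA1, the anchor subunit of a-agglutinin, rose 4.24-fold and 1.52-fold, from 2202 and 288 CPM on average (difference -1.48 ± 0.27, adjusted p = 0.000181). AGA2, the adhesion subunit, differed at 0 h by -3.91 (∆Ste12 minus WT, adjusted p = 1.67e-11), while its response difference was -0.22 ± 0.31 (adjusted p = 0.617).

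Components of the signalling pathway itself were mostly lower in ∆Ste12 before treatment and responded less. Of 15 receptor and MAP kinase genes, 8 had a negative difference and 1 a positive one, and 8 were lower in ∆Ste12 at 0 h. FUS3 (chrII:192451-193512), the mating MAP kinase, was at 158, 165, 149.6 and 156 CPM and 393, 377, 406 and 429 CPM in WT. It was at 65.7, 60.5, 65.6 and 63 CPM and 55.8, 53.7, 71.4 and 66.7 CPM in ∆Ste12, below every WT library and with overlapping groups. FUS3 rose 2.56-fold in WT, and the difference was -1.40 ± 0.10 (adjusted p = 1.98e-10). KSS1, the second MAP kinase, rose 2.06-fold in WT and 1.18-fold in ∆Ste12 (difference -0.80).

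FAR1 (chrX:123836-126328), the inhibitor that arrests the cell cycle, was at 518, 532, 361 and 441 CPM and 893, 834, 771 and 782 CPM in WT but only at 27.9, 24.9, 31.2 and 20.4 CPM and 15.5, 12.5, 26.6 and 34.1 CPM in ∆Ste12. Most of the gap was present without pheromone, with a strain difference of -4.14 at 0 h, and the response difference was -1.07 ± 0.31 (adjusted p = 0.00815). STE2, the receptor, had no called change in WT (0.15) and fell in ∆Ste12 (-0.47), where its mean went from 365 to 262 CPM. The same held for STE18, the gamma subunit (0.19 in WT and -0.56 in ∆Ste12, with no called difference in batch 2 alone), while STE4, the beta subunit, rose in WT and fell in ∆Ste12 (0.18 and -0.38). GPA1, the alpha subunit, rose 1.33-fold in WT alone (difference -0.50). CDC24, the exchange factor for Cdc42, differed by -0.25. STE20, the kinase upstream of the cascade, fell in WT alone and gave the positive difference of 0.26, while the cascade kinases STE11 and STE7 had none that was called. With library totals the list gave 2 positive and 7 negative differences.

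Among the transcription factors and their inhibitors, KAR4 and DIG2 had the largest response differences. KAR4 (chrIII:27929-28936), the partner of Ste12 at late mating genes, was at 53.2, 57.5, 39.5 and 45 CPM in untreated WT and 482, 434, 324 and 335 CPM in treated WT. In ∆Ste12 it was at 22, 22.5, 20 and 18.9 CPM and 20.5, 20.4, 17.2 and 18.5 CPM, overlapping between conditions and below every untreated WT library. The difference was -3.13 ± 0.10 (adjusted p = 2.52e-15) against a WT fold of 8.04. DIG2, an inhibitor of Ste12, overlapped between the untreated strains, at 12.1, 12.6, 12.7 and 16.7 CPM in WT and 12.9, 12.6, 13.2 and 12 CPM in ∆Ste12. After alpha-factor it reached 162, 172, 140.3 and 166 CPM in WT and 16.1, 17.6, 16.4 and 17.8 CPM in ∆Ste12, so that it rose 11.6-fold and 1.34-fold (difference -3.11 ± 0.12, adjusted p = 2.09e-15). Its paralog DIG1 fell in WT alone, with a response of -0.27, and differed by 0.27, which was not called in batch 2 alone. TEC1, the partner of Ste12 in filamentous growth, differed by -1.88 at 0 h and rose 2.61-fold in WT and 1.3-fold in ∆Ste12. MCM1 fell in WT (-0.37) without a called difference.

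Negative feedback genes lost induction to different degrees, with 5 of 7 tested negative. ASG7, an a-specific gene that dampens signalling after mating, went from 53.2, 48.6, 31.2 and 39.2 CPM to 842, 766, 517 and 598 CPM in WT and was at 1.42, 0.71, 4.13 and 2.33 CPM and 1.88, 1.09, 5.47 and 5.17 CPM in ∆Ste12 (difference -3.46 ± 0.56, adjusted p = 3.63e-05). MSG5, a phosphatase of Fus3, overlapped between the untreated strains, at 66, 72.2, 56.7 and 67.4 CPM in WT and 68, 65, 62.4 and 59.7 CPM in ∆Ste12. It rose to 362, 339.6, 339.6 and 328 CPM in WT and to 76.4, 78, 76.4 and 69.2 CPM in ∆Ste12, without overlap between conditions in either strain. The difference was -2.15 ± 0.09 (adjusted p = 1.86e-14). AFR1, which desensitizes the receptor (-1.56), PTP2, a tyrosine phosphatase (-0.96), and SST2, which switches off the G protein (-0.57), also rose less. SST2 differed by -3.70 at 0 h. PTP3, the other tyrosine phosphatase, fell in WT alone and differed by 0.48.

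Genes of a-factor production differed in level more than in response. Of 10 genes, 7 were lower in untreated ∆Ste12, but the differences were split, 2 positive and 2 negative, and small. AXL1, a processing protease, rose in WT alone (difference -0.38, not called with library totals). The calls of MFA2, an a-factor gene (-0.74), RAM1, of farnesylation (0.30), and STE23, a protease (0.23), were each lost when any of several single libraries was left out. MFA1, with 917 CPM in untreated WT and 56.1 CPM in untreated ∆Ste12, had no called response in either strain.

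Polarity genes gave small differences, 6 negative and 2 positive of 17, and with library totals 2 negative and 5 positive. The list median minus that of all features was -0.18, and -0.19 with library totals. GIC2, an effector of Cdc42, rose 2.08-fold in WT and 1.24-fold in ∆Ste12 (difference -0.74). BOI1, a bud site scaffold, and RGA1, a GTPase-activating protein of Cdc42, rose in WT alone (-0.47 and -0.39), the second without a call under library totals. MSB2, the mucin sensor of the filamentous branch, went the other way. It was at 1014, 813, 842 and 859 CPM and 1083, 979, 1044 and 1131 CPM in WT and at 374, 381, 428 and 438 CPM and 668, 701, 750.1 and 778 CPM in ∆Ste12. The ∆Ste12 groups were apart and the WT groups overlapped, and the rise was the larger one in ∆Ste12 (0.57 ± 0.13, adjusted p = 0.00132). Of 8 filamentous growth genes tested, MSS11, an activator of FLO11, lost its induction (WT 1.63, ∆Ste12 0.02), as did the transcription factor RIM101 (-0.57), whereas HKR1, an osmosensing mucin, rose in both (0.44 and 0.42).

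The retrotransposon Ty3, known to be pheromone-induced, was at a much lower level without STE12 and had no called response there. Its 4 annotated features took 0.564% of counts in untreated WT (SD 0.0511, n = 4) and 8.25% in treated WT (SD 0.932), against 0.0267 and 0.0311% in ∆Ste12. YGR109W-B was at 1646, 1948, 1724 and 1598 CPM in untreated WT and 42728, 35912, 29536 and 37610 CPM in treated WT, and at 105, 107, 105 and 100.2 CPM and 115, 127, 117 and 125 CPM in ∆Ste12. All 4 features had negative differences, from -4.50 for YGR109W-A to -3.53 for YIL082W-A, and none had a called response in ∆Ste12. Reads of the near-identical copies, and of YGR109W-A and YGR109W-B, which overlap, cannot be assigned to one of them with certainty. Over all transposon features, 27 of 90 had a negative difference and none a positive one, against 17.6 and 18.3% of all features. The 27 include the 4 Ty3 features. Reads may be shared among near-identical copies here too, so these features are not separate observations.

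Several genes of meiosis and of the mating type system moved in these haploid cells. IME4, an RNA methyltransferase of meiotic entry, was at 1.63, 1.85, 0.938 and 1.5 CPM in untreated WT and 272, 282, 259.8 and 262 CPM in treated WT. In ∆Ste12 it had at most 4 counts in any library, so no size is given for the difference, which was called negative. RME2, the antisense transcript of IME4, moved the other way, from 127, 134, 128 and 136 CPM to 29.2, 26.8, 33.8 and 36.2 CPM in WT, while ∆Ste12 stayed at 96.7, 84.8, 108 and 107 CPM and 91.9, 97.9, 107 and 115 CPM. It fell in WT alone, with a difference of 2.13 ± 0.10 (adjusted p = 1.1e-13). The 2 features lie on opposite strands of one locus, so their separate values depend on a stranded counting that the sources used here do not state.

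SPO11, which makes the double-strand breaks of meiosis and whose promoter is shown above, was at 2.8, 1.68, 2.61 and 2.53 CPM and 28.2, 33.9, 40.6 and 31.2 CPM in WT and at 1.9, 1.69, 1.47 and 1.79 CPM and 1.71, 1.23, 2.17 and 1.95 CPM in ∆Ste12. It rose 13.9-fold in WT alone (difference -3.78 ± 0.32, adjusted p = 1.96e-09). DMC1, a meiotic recombinase at under 5 CPM, gave -2.85, which was not called in batch 1 alone. RME1, a repressor of meiosis, rose in WT alone (-0.54), and IME1 and UME6, regulators of meiotic genes, fell in WT alone (0.57 and 0.76). RIM4, an RNA-binding protein of meiosis, rose in both strains, by 1.09 in WT and 1.16 in ∆Ste12. Of the 15 genes, 4 differences were negative (26.7%, against 17.6% of all features) and 3 positive (20.0%, against 18.3%), near the background.

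Of the alpha-specific genes, MF(ALPHA)1, which encodes alpha-factor, had the most positive difference among protein-coding genes above the detection floor. It was at 43.6, 46.1, 25.2 and 33.5 CPM in untreated WT and fell to 1.29, 0.657, 1.76 and 1.23 CPM. In ∆Ste12 it began at 4.12, 2.31, 3.92 and 2.41 CPM and ended at 0.856, 0.681, 2.08 and 3.12 CPM, so that the strains overlapped after treatment and were apart before it (difference 3.81 ± 0.56, adjusted p = 1.17e-05). SAG1, the alpha-agglutinin, fell in WT and rose in ∆Ste12 (difference 0.85). HO, the mating type switching endonuclease, was at 12.6, 7.57, 3.34 and 6.09 CPM and 50.9, 46.9, 54.5 and 56.4 CPM in WT and at 11.2, 6.57, 12 and 8.09 CPM and 19.2, 7.49, 34.1 and 25.8 CPM in ∆Ste12. The WT groups were apart and the ∆Ste12 groups overlapped, and HO rose 7.85-fold and 2.21-fold (difference -1.83 ± 0.46, adjusted p = 0.00343). The silencing gene SIR2 rose in both strains without a called difference. Of 6 genes of mating type switching and silencing, 1 difference was positive and 1 negative (16.7% each), near the background.

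Regulators of the G1 to S transition split by direction. Of 19, 8 differences were positive and 3 negative (10 and 1 with library totals), and 9 genes rose in ∆Ste12 against 5 in WT. CLN2 was at 249.6, 199, 190.2 and 207 CPM in untreated WT and 140.2, 123, 151 and 143 CPM after alpha-factor, and at 170.0, 159, 165 and 151 CPM and 222, 199, 266 and 267 CPM in ∆Ste12. It fell in WT and rose in ∆Ste12 without overlap in either strain, a difference of 1.16 ± 0.13 (adjusted p = 1.33e-07). CLN1 did the same, with -0.75 in WT and 0.55 in ∆Ste12.

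CLB6, an S-phase cyclin, was at 8.4, 6.05, 6.05 and 7.12 CPM and 2.36, 1.18, 3.22 and 3.68 CPM in WT and at 8.07, 5.15, 13.2 and 9.57 CPM and 14.5, 12.5, 30.1 and 26.3 CPM in ∆Ste12. The difference of 2.52 ± 0.36 (adjusted p = 9.15e-06) joined a fall in WT, without overlap, to a rise in ∆Ste12, where the groups overlapped by 1 library. YOX1, a repressor of early cell cycle boxes, also fell in WT and rose in ∆Ste12 (-1.91 and 0.58, difference 2.50 ± 0.23), as did the cyclin PCL1 at low level (difference 2.37). CLB5 and YHP1 rose in ∆Ste12 alone (0.83 and 0.90), and SWI4, the DNA-binding subunit of the SBF factor, fell in WT alone (0.68).

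PCL2, a cyclin of Pho85, went the other way. It stood at 52.2, 49.8, 42.1 and 52.6 CPM and 639, 578, 579.9 and 592 CPM in WT and at 29.7, 17.1, 32.8 and 29.5 CPM and 25, 15.4, 29.5 and 30.7 CPM in ∆Ste12, a WT fold of 12.2 and a difference of -3.75 ± 0.22 (adjusted p = 3.11e-12). WHI5, a G1 inhibitor (-0.83), and PCL7 (-0.44) also rose in WT alone.

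In DNA replication, 8 differences of 32 were positive and 6 negative, close to the background. RNR1, the large ribonucleotide reductase subunit, fell in WT from 358, 336, 317 and 332 CPM to 81.9, 80.1, 149.9 and 109 CPM and stayed at 341, 366, 369.6 and 341 CPM and 341, 358, 533 and 533 CPM in ∆Ste12, a difference of 1.99 ± 0.21 (adjusted p = 8.54e-08). The treated ∆Ste12 libraries of batch 2 were the highest of all. The loading factor CDC6 (1.31) and the polymerase subunit POL1 (0.50) were also positive, the first without a call in batch 1 alone. CTF4, a replisome scaffold (-1.31), POL30, the sliding clamp (-0.79), and CDC9, the ligase (-0.78), were induced less in ∆Ste12. The MCB element ACGCGT was in 18 of the 32 promoters (56.2%), against 3.1% of all coding genes. SCC2, the cohesin loader, fell in WT alone (1.07), and the linker histone HHO1 was the only 1 of 10 histone genes with a called difference (-1.06, lost in batch 1 alone; 2 were positive and 1 negative with library totals).

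M phase genes were also split, with 7 negative (33.3%, against 17.6% of all features) and 4 positive (19.0%, against 18.3%) of 21. With library totals 3 were negative and 6 positive. The list median minus that of all features was 0.13 with either scaling. The mitotic exit kinase DBF2 and its activator MOB1 (-0.81 and -0.59) rose in WT and less, or without a call, in ∆Ste12. The forkhead gene FKH2 (0.87) and the cyclin CLB2 (0.59) fell in WT alone, whereas FKH1 rose in both strains, more so in WT (-0.49).

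Daughter separation genes, whose products dissolve the septum between mother and daughter, held genes that needed STE12 beside genes that moved in both strains. SCW11, a glucanase, was at 84.4, 81.4, 106 and 88.6 CPM and 837, 702, 805 and 815 CPM in WT and at 57.7, 63.2, 46.2 and 47.4 CPM and 40, 57, 38.2 and 37.4 CPM in ∆Ste12, a WT fold of 8.72 and a difference of -3.43 ± 0.18 (adjusted p = 6.64e-13). AMN1, which blocks mitotic exit and keeps daughters attached (-2.25), and the chitinase CTS1 (-1.44) rose in WT and fell in ∆Ste12. The other 8 of the 11 genes had no called difference. DSE2 was at 202, 189, 289 and 162 CPM and 78.9, 67.5, 104 and 70.8 CPM in WT and at 239, 180.1, 155 and 175 CPM and 70.9, 94.5, 73.8 and 65.2 CPM in ∆Ste12, and it fell without overlap in both strains, with responses of -1.39 and -1.30 and a difference of 0.09 ± 0.25 (adjusted p = 0.802). All 8 fell in WT and 6 of them fell in ∆Ste12. In the equal-age experiment none of the 11 genes fell and 8 rose, DSE2 by 0.30 and DSE1 by 0.67 log2 units (adjusted p = 0.0229 and 0.00148). The shared fall in batches 1 and 2 was therefore not seen when untreated and treated cells were both sampled at 60 min.

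Cell wall genes moved in both directions. Of 45, 18 differences were negative and 15 positive (16 and 16 with library totals), both shares above the background. All 18 with negative differences rose in WT, and of the 25 that rose in WT 16 also rose in ∆Ste12. GSC2, the inducible glucan synthase subunit, was at 434, 425, 759 and 552 CPM and 3099, 2867, 2991 and 3072 CPM in WT and at 329, 233, 496 and 496 CPM and 358, 326, 523 and 520.4 CPM in ∆Ste12. The untreated groups overlapped between strains, and the WT fold of 5.72 compares with 1.12 in ∆Ste12 (difference -2.35 ± 0.21, adjusted p = 8.77e-09). CHS1 and CHS3, chitin synthases, differed by -1.58 and -0.94, and GFA1, which makes their substrate, by -1.18. Other members of the list with negative differences, chosen after their values were seen, were the MAP kinase SLT2 (-1.27), the sensors WSC2 (-1.34) and MID2 (-1.19, overlapping JIP3 on the other strand), RHO1 (-0.85) and the transcription factor RLM1 (-0.74).

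Cell wall genes that fell in WT included MNN1, a mannosyltransferase, at 372, 267, 335 and 349 CPM and 61.5, 49.9, 70.4 and 62.1 CPM in WT. It was at 388, 279.8, 404 and 388 CPM and 495, 402, 535 and 513 CPM in ∆Ste12, where it rose (2.86 ± 0.18, adjusted p = 1.49e-11). SCW4, a glucanase, fell from 2815, 2537, 2174 and 1978 CPM to 437, 506, 562 and 609.9 CPM in WT and stayed at 1346, 1434, 1535 and 1513 CPM and 1325, 1162, 1406 and 1554 CPM in ∆Ste12 (difference 2.08 ± 0.16, adjusted p = 4.74e-10). PIR3 (1.56), UTR2 (1.44), GAS1 (0.68) and the constitutive glucan synthase FKS1 (0.60) also fell in WT alone. TOS6 rose in ∆Ste12, by 1.23, and fell in WT (difference 1.91). PIR1 and CIS3 rose in both strains without a called difference.

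**Figure D3:**
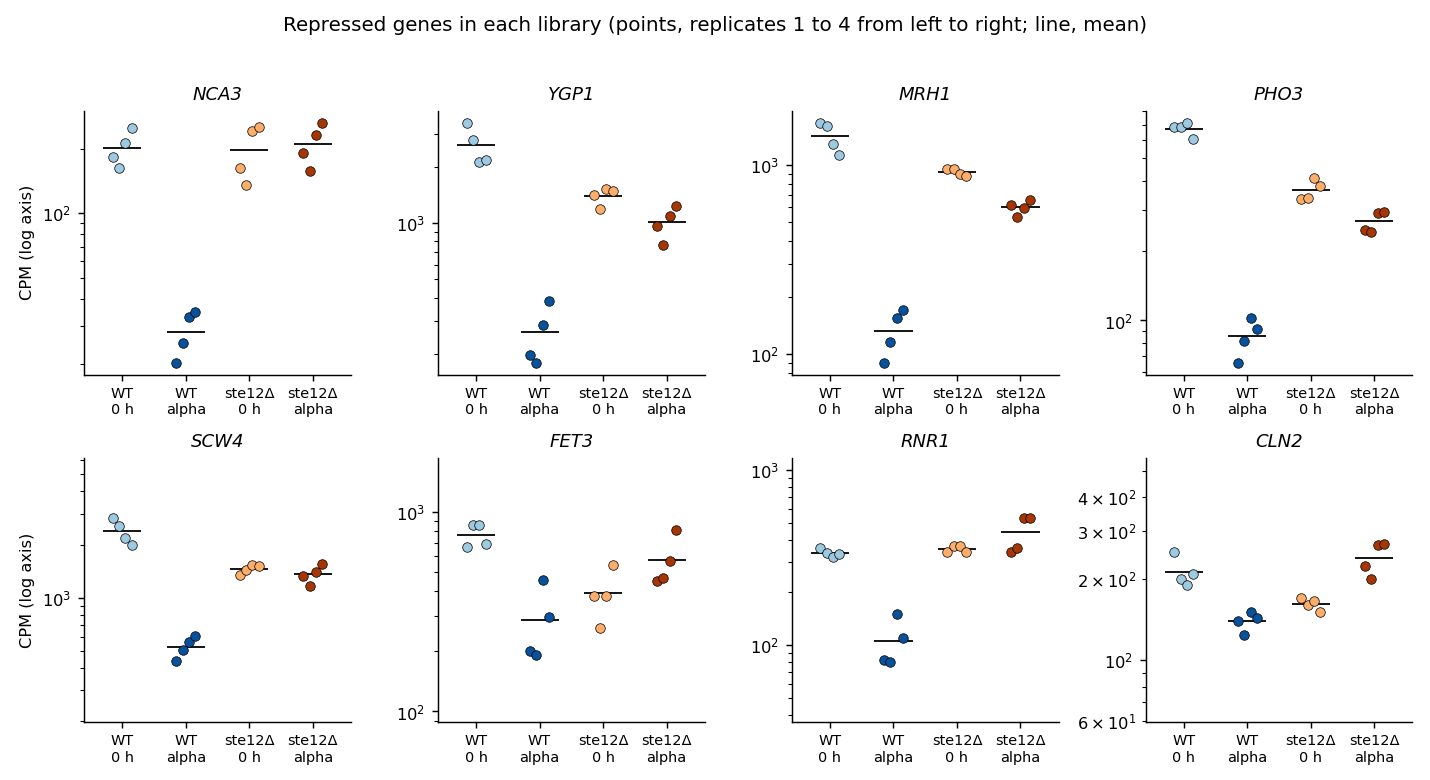
CPM in every library are plotted on log axes for NCA3, YGP1, MRH1, PHO3, SCW4, FET3, RNR1 and CLN2, with points for replicates 1 to 4 from left to right in each of the 4 groups and a line at the group mean (ste12Δ stands for ∆Ste12). In all 8 panels the treated WT libraries lie below the untreated WT libraries, and in ∆Ste12 the fall is smaller, absent or turned into a rise, as for CLN2 with a log2 response of -0.60 in WT and 0.56 in ∆Ste12.

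Among the most positive differences were several strong repressions of WT. NCA3 (chrX:193860-194873), a protein of the SUN family, was at 183, 162, 212 and 249.9 CPM and 20.2, 25, 32.9 and 34.7 CPM in WT and at 162, 135, 241 and 253 CPM and 189.9, 158, 231 and 263 CPM in ∆Ste12. Untreated levels overlapped between strains, WT fell without overlap, and ∆Ste12 had no called change (difference 2.96 ± 0.17, adjusted p = 3.11e-12). YGP1 (chrXIV:336545-337609), a secreted glycoprotein of stress and nutrient limitation, was at 3417, 2778, 2115 and 2171 CPM and 197, 179.7, 287 and 381 CPM in WT and at 1413, 1183, 1516 and 1485 CPM and 961, 760.1, 1086 and 1227 CPM in ∆Ste12 (difference 2.91 ± 0.33, adjusted p = 2.38e-07). MRH1, a plasma membrane protein related to Hsp30, fell in both strains, from 1431 to 133 CPM on average in WT and from 923 to 599 CPM in ∆Ste12 (difference 2.82 ± 0.30). PRY1, a sterol-binding secreted protein, fell in WT alone (difference 2.67 ± 0.23), and TMN2, a transmembrane protein of the endosomal system, fell in WT and rose in ∆Ste12 (difference 2.66 ± 0.15).

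Zinc and iron genes gave positive differences more often than negative ones, while phosphate genes were nearly evenly split. Of 13 zinc-responsive genes, 7 differences were positive and 1 negative, 10 genes fell in WT and 8 fell in ∆Ste12 as well. FET4, a low-affinity metal transporter, fell with responses of -2.74 in WT and -1.18 in ∆Ste12 (difference 1.55), and ZRT2 and IZH1, a zinc transporter and a zinc-regulated membrane protein, did likewise (1.07 and 1.12). Of 22 iron genes, 10 were positive and 2 negative. In this list 12 genes rose in ∆Ste12, none fell, and 6 rose and 6 fell in WT. FET3, the ferroxidase of high-affinity iron uptake, was at 665, 865, 865 and 691 CPM and 202, 192, 455 and 299 CPM in WT and at 377, 264, 379 and 543 CPM and 450.1, 469, 566 and 812 CPM in ∆Ste12 (difference 2.03 ± 0.27, adjusted p = 3.11e-06). The WT groups were apart and the ∆Ste12 groups overlapped. SIT1, a siderophore transporter, fell in WT alone (2.49 ± 0.38), FTR1, the permease partner of Fet3, fell in WT and rose in ∆Ste12 (1.20), and HMX1, the heme oxygenase, rose in both, more so in WT (-0.91).

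Phosphate genes gave 7 positive and 6 negative differences of 24, and 12 of them fell in both strains. PHO3, a phosphatase, was at 685, 682, 711 and 607 CPM and 65.8, 81.3, 103 and 91.8 CPM in WT and at 334, 338, 410.1 and 380.1 CPM and 245, 241, 291 and 294 CPM in ∆Ste12. It fell in both strains without overlap, more in WT (difference 2.53 ± 0.13, adjusted p = 3.18e-13). PHO5, the repressible acid phosphatase, fell with responses of -3.24 in WT and -1.44 in ∆Ste12, and the transporter PHO84 fell in WT alone, with -1.67. Against this trend the sodium-coupled transporter PHO89 rose from 5.36, 3.87, 10.7 and 5.34 CPM to 58.3, 71.6, 64.3 and 63.7 CPM in WT and was at 4.91, 4.35, 8.83 and 6.46 CPM and 8.3, 6.4, 8.42 and 8.98 CPM in ∆Ste12 (difference -2.95 ± 0.30, adjusted p = 6.63e-08). SPL2, a regulator of phosphate transport, and the polyphosphate gene VTC1 fell in both without a called difference.

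Methionine and sulfur assimilation genes had the highest share of negative differences among the metabolic lists. Of 31, 17 differences were negative and 1 positive (13 and 5 with library totals), with 22 genes rising in WT and 13 in ∆Ste12, and medians of 1.05 and 0.19. SUL1, the sulfate permease, was at 5.36, 6.05, 7.92 and 5.81 CPM and 55.5, 63.8, 68.1 and 93.9 CPM in WT and at 4.59, 4.26, 8.55 and 9.72 CPM and 8.39, 12.2, 14 and 12.2 CPM in ∆Ste12. Untreated levels overlapped between strains, and it rose 11.3-fold and 1.75-fold (difference -2.69 ± 0.24, adjusted p = 4.41e-09). MET14, the kinase that activates sulfate, rose 5.9-fold in WT, from 15.9 to 91.6 CPM, and had no called response in ∆Ste12 (difference -2.31 ± 0.23, adjusted p = 4.61e-08). MET3, the sulfurylase (-1.82), MET16, the reductase of activated sulfate (-1.34), MET2 (-1.56), of homoserine use, and STR3 (-1.81), of sulfur transfer, followed. MET13 and the permease SUL2 rose in both strains without a called difference, and SAH1, which hydrolyses adenosylhomocysteine, was the positive one (0.43). In the equal-age experiment 17 of the 31 rose and 3 fell.

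**Figure D4:**
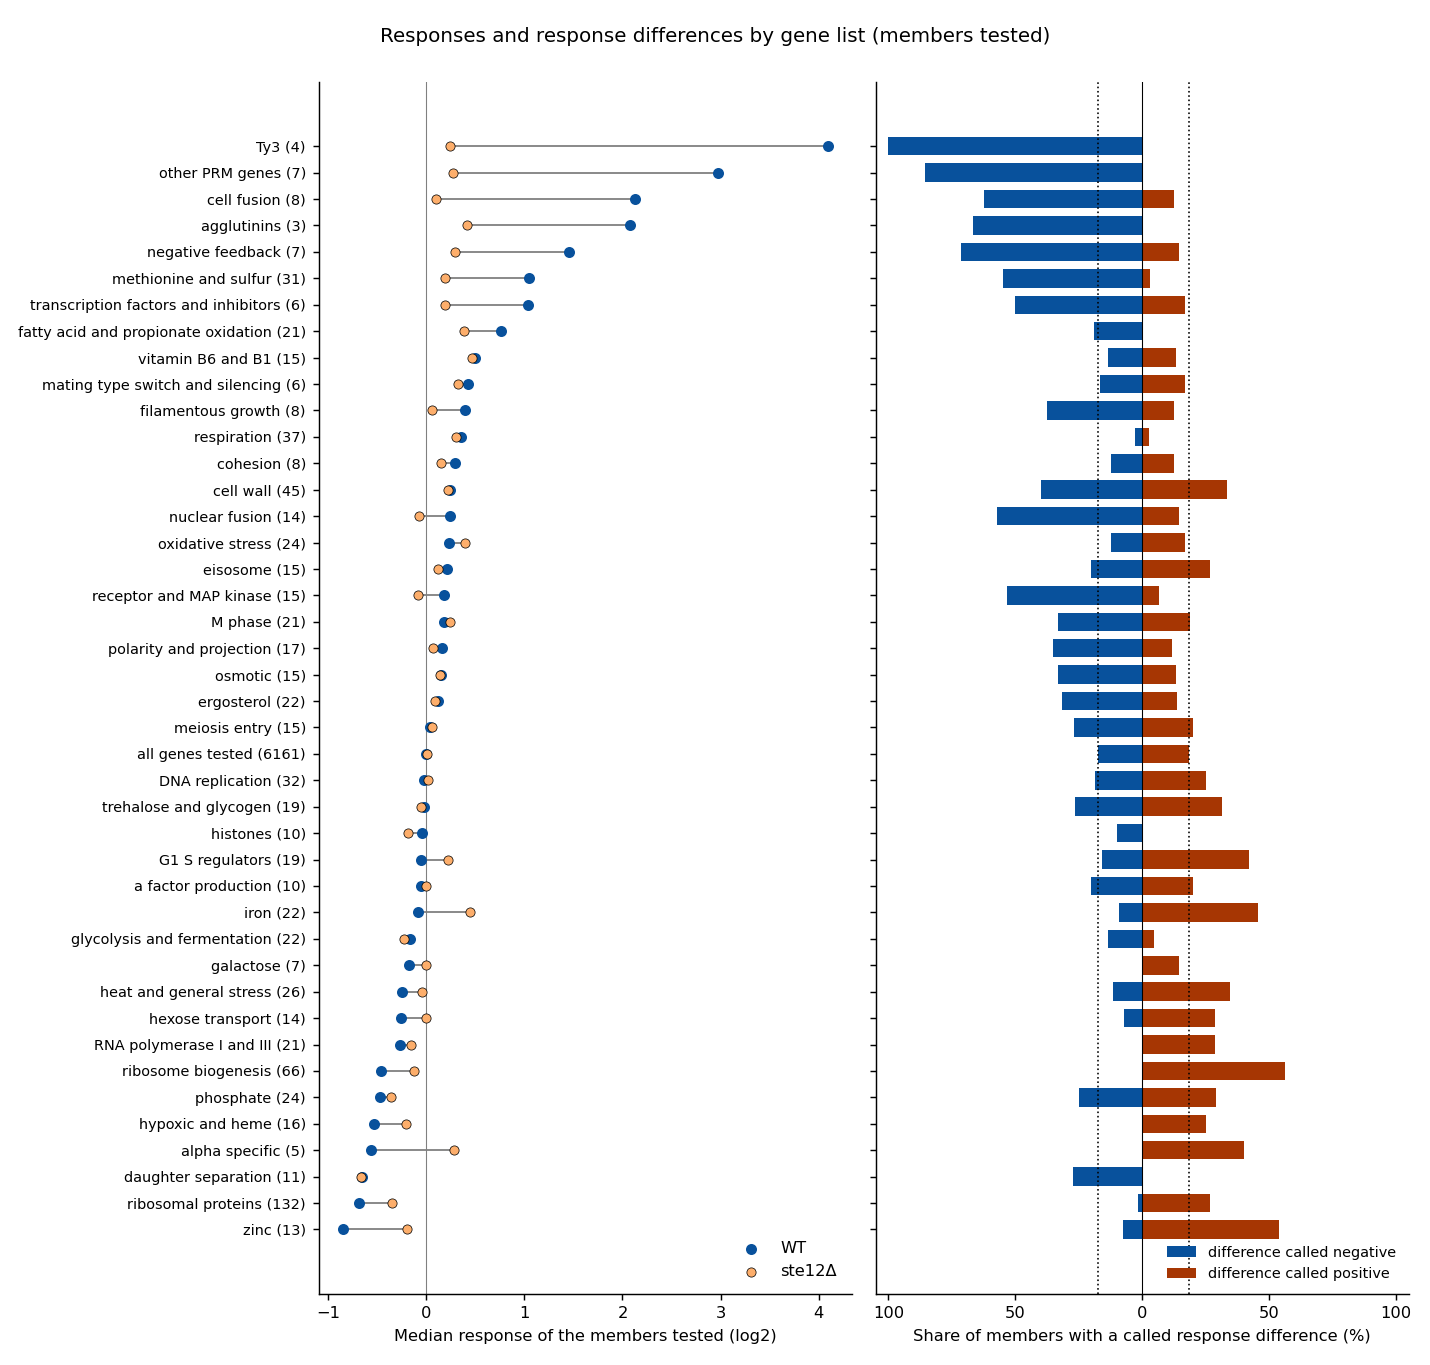
For each gene list the left panel shows the median log2 response of the members tested in WT and in ∆Ste12 (ste12Δ in the plot), and the right panel shows the percent of members with a called negative or positive response difference, with dotted lines at the values of all features tested (17.6 and 18.3%). Ty3, PRM, feedback, agglutinin and cell fusion lists have the highest shares of negative differences, zinc and ribosome biogenesis lists the highest shares of positive ones, and respiration has 1 called member in each direction.

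Stress, carbon and energy lists gave differences in both directions. PGM1 (chrXI:203541-205253), a phosphoglucomutase, was at 98.9, 90, 95.9 and 99.96 CPM and 737, 757, 701 and 683 CPM in WT and at 87, 82.6, 103 and 106 CPM and 106, 107, 121 and 118 CPM in ∆Ste12. The untreated strains overlapped, and PGM1 rose 7.5-fold in WT and 1.2-fold in ∆Ste12 (difference -2.65 ± 0.10, adjusted p = 1.75e-15). HXT2, a hexose transporter, rose 12.3-fold in WT, from 14.9, 13.6, 62.8 and 25.1 CPM to 297, 291, 372 and 395 CPM. In ∆Ste12 it was at 26.5, 22.1, 75.8 and 86.2 CPM and 64.4, 63.6, 64.8 and 63 CPM (difference -3.15 ± 0.44). It thus rose in ∆Ste12 of batch 1 and fell in batch 2, with no called response over both. HXT1 fell in WT alone (1.14), and reads of near-identical transporters can be shared. Of the osmotic genes GPD1, for glycerol synthesis, rose in WT alone (-1.27), and GRE2 rose in both, more in WT (-1.25, not called in batch 1 alone). Heat and general stress genes had 9 positive and 3 negative differences of 26, among them the membrane heat shock gene HSP30 (1.12) and the mitochondrial chaperones HSP60 (0.70) and HSP10 (0.77), with DDR48 negative (-1.17). All 9 positive ones fell in WT, where 14 of the 26 fell, but at equal age 12 of the list rose and 7 fell. In the trehalose and glycogen list 9 of 19 fell in WT, and at equal age 13 rose and 0 fell. For these 2 lists treatment and the hour in glucose cannot be told apart in batches 1 and 2. Ergosterol genes had 7 negative and 3 positive of 22, led by ERG24 (-1.37), and 2 negative and 6 positive with library totals. The ergosterol median minus that of all features was -0.04 with either scaling. Glycolysis and fermentation (1 positive and 3 negative of 22, but 3 and 3 with library totals), fatty acid oxidation (0 and 4 of 21, but 3 and 3), hypoxic genes (4 and 0 of 16), trehalose and glycogen (6 and 5 of 19, but 7 and 2), eisosome genes (4 and 3 of 15, but 4 and 1) and galactose genes (1 and 0 of 7), hexose transport (4 and 1 of 14), osmotic genes (2 and 5 of 15, but 5 and 5) and oxidative stress genes (4 and 3 of 24) were the remaining lists. In the eisosome list NCE102, a plasma membrane protein, fell from 303 to 68.4 CPM in WT alone (2.04).

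Some lists changed in both strains, respiration with few called differences, and the members named for them were chosen after their values were seen. Respiration had 21 of 37 genes up in WT and 18 up in ∆Ste12, with 1 positive and 1 negative difference (4 and 0 with library totals), far under the 35.9% called over all features. CYT1, cytochrome c1, was at 88.6, 61.9, 132 and 117 CPM and 173, 162, 192 and 231 CPM in WT and at 85.6, 85.1, 155 and 155 CPM and 211, 224, 238 and 245 CPM in ∆Ste12, with a difference of 0.04 ± 0.19 (adjusted p = 0.9). Of the vitamin B6 and B1 genes, 10 of 15 rose in WT and 11 in ∆Ste12, as for SNO1 of pyridoxine synthesis (2.39 in WT and 2.42 in ∆Ste12). In this list 2 differences were positive and 2 negative (13.3% each), not far under the 18.3 and 17.6% of all features. Among oxidative stress genes the mitochondrial peroxiredoxin PRX1 (1.28 and 1.20), the glutathione peroxidase GPX2 (1.88 and 1.91) and the thioredoxin TRX2 (0.93 and 0.96) rose in both strains without a called difference, while GRX1, a glutaredoxin, rose in WT alone (-1.06). At equal age the respiration list gave 7 genes higher and 9 lower, and the vitamin list 3 higher and 6 lower, and CYT1 (-0.03) and SNO1 (0.15) had no called change there. The rise of both lists in batches 1 and 2 accordingly cannot be told apart from the hour in glucose.

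**Figure D5:**
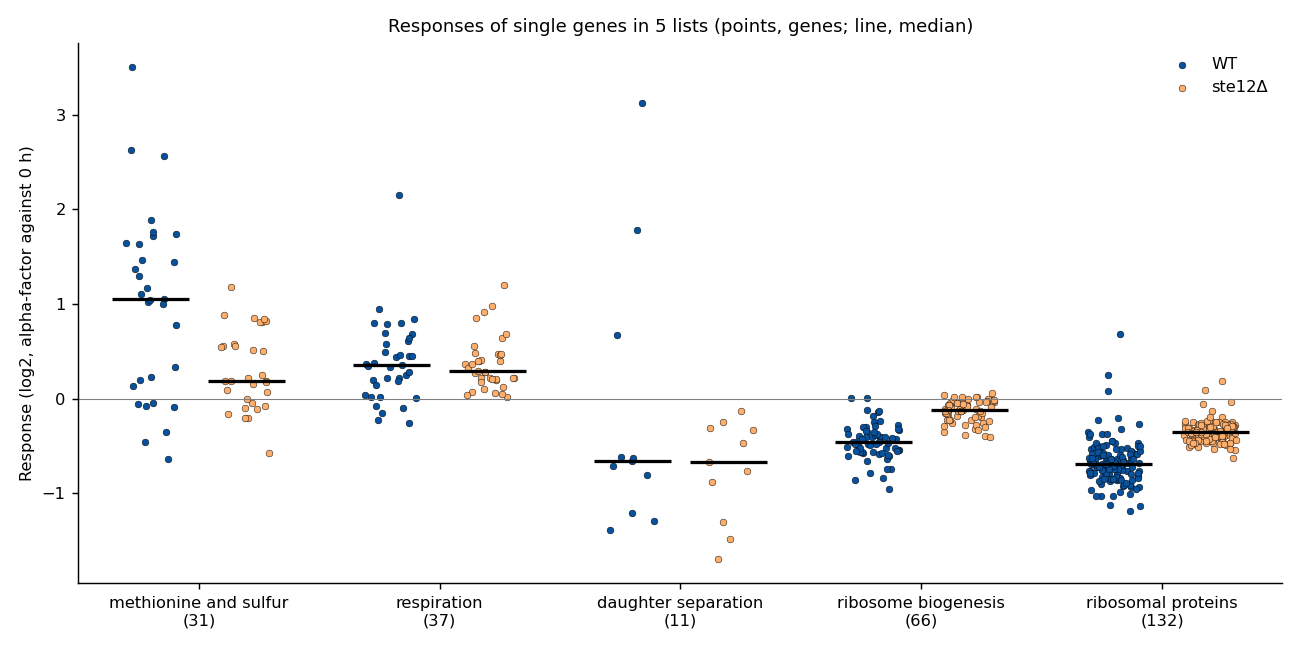
Each point is the log2 response of 1 gene (vertical axis) in WT or in ∆Ste12 (ste12Δ in the plot), for methionine and sulfur, respiration, daughter separation, ribosome biogenesis and ribosomal protein genes, and the bars are medians. The medians of the strains lie close together for respiration and daughter separation and apart for methionine and ribosome biogenesis genes, the latter with -0.46 in WT and -0.12 in ∆Ste12.

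Ribosome biogenesis genes fell in WT and fewer of them in ∆Ste12. Of 66 ribosome biogenesis genes, 37 differences were positive and none negative, and 61 genes fell in WT against 16 in ∆Ste12. RRP5, a processing factor of ribosomal RNA, was at 679, 655, 669 and 595 CPM and 333, 353, 352 and 302 CPM in WT and at 698, 736, 698 and 679 CPM and 616, 644, 554 and 545 CPM in ∆Ste12. It fell without overlap in both strains, to 0.516 of its untreated level in WT and 0.839 in ∆Ste12 (difference 0.70 ± 0.10, adjusted p = 5.88e-06). RNA polymerase I and III genes gave 6 positive and no negative difference of 21, with the largest polymerase I subunit RPA190 at 0.51. Of 132 ribosomal protein genes, 35 were positive (26.5%, against 18.3% of all features) and 2 negative, and 125 fell in WT and 92 in ∆Ste12, with medians of -0.69 and -0.35. Library totals raised these counts to 50 of 66 and 93 of 132, and removing transposon and ribosomal RNA features gave 26 positive and 2 negative ribosomal protein genes, close to the background. At equal age 66 of 66 ribosome biogenesis and 124 of 132 ribosomal protein genes fell in WT, with medians of -0.80 and -0.43. Many ribosomal proteins have near-identical paralogs, between which the reads may be split.

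Genes that responded in opposite directions were led by YDR124W, a gene of unknown function. It went from 26.8, 35.7, 22.4 and 22.1 CPM to 213, 196, 206 and 211 CPM in WT and from 22.6, 15.9, 10.6 and 12.1 CPM to 7.36, 9.53, 9.63 and 8.49 CPM in ∆Ste12, without overlap in either strain (difference -3.76 ± 0.22, adjusted p = 3.67e-12). ARO10, a decarboxylase of amino acid breakdown, rose 6.66-fold in WT and fell to 0.68 of its untreated level in ∆Ste12 (difference -3.29 ± 0.21, adjusted p = 1.48e-11). MNN1, TMN2 and CLB6, described above, were the others among the 5 with the largest summed absolute responses.

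Genes induced at equal age with the largest ∆Ste12 inductions but without a called difference included PDH1, of propionate breakdown, at 5.13, 4.04, 3.65 and 3.47 CPM and 13.3, 14.7, 28 and 19.6 CPM in WT and 5.07, 6.21, 5.04 and 4.28 CPM and 13.3, 14.9, 19.3 and 20.1 CPM in ∆Ste12. It rose 4.97-fold and 3.26-fold, with a difference of -0.61 ± 0.29 (adjusted p = 0.101). BOP2, uncharacterized, rose 4.62-fold and 2.77-fold (difference -0.74 ± 0.29, adjusted p = 0.0539), and the stress gene GRE1 and the dubious frame YPL136W were of the same kind. The transfer RNA tI(AAU)I2 also met this rule, but it had 0 counts in every untreated ∆Ste12 library. Among repressed genes IZH4, a zinc-regulated membrane protein, was at 114, 126, 47.3 and 51.9 CPM and 6.88, 5.39, 6.85 and 5.99 CPM in WT and at 84.5, 95.3, 32.2 and 29.1 CPM and 11, 13, 9.02 and 8.39 CPM in ∆Ste12, with a difference of 1.17 ± 0.51 (adjusted p = 0.0744). Its untreated level was higher in batch 1 than in batch 2 in both strains. AAC3, a mitochondrial carrier, and VTC3, of polyphosphate synthesis, fell in both strains as well.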

How the data were processed

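RNA was prepared from whole yeast cultures with a stranded total RNA kit after ribosomal RNA removal and sequenced in 50-base reads, per the labels' protocols. The authors deposited 1 table of expected counts per feature, not normalized, in which 24.5% of values are whole numbers. The submitters' processing notes name STAR, featureCounts and the build sacCer3. Versions, annotation and the strand setting of the counting are not given in the sources used here, so genes that overlap on opposite strands are uncertain. Of 7127 features, 6047 matched the RefSeq annotation of R64, and the rest held 1.43 to 6.59% of counts.

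Expected counts were rounded and tested with edgeR 4.0.16 (R 4.3.3, limma 3.58.1) by its quasi-likelihood F test, with TMM scaling, filterByExpr (minimum count 10, total 15) and Benjamini-Hochberg adjustment over all features, and a call was an adjusted p under 0.05. The 24 libraries of batches 1 and 2 (WT, ste12 and kar4 deletions) entered 1 fit that had an additive batch term, and the response difference was the interaction of strain and treatment. An SE is the absolute log2 fold change divided by the square root of F. CPM values are relative to the library total over the features tested, scaled by the TMM factor of the library. WT of batch 4 (2 against 2 libraries) was fitted apart and chose the induced and repressed genes. In batch 3, used only as an alternative for that choice, paired columns agreed within counting noise and were counted as 1 library each. The tests were checked on simulated data. DESeq2 1.42.0 was an alternative.

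Members and the 41 gene lists (842 genes) were chosen with earlier results of these data known. Named genes were the 10 most negative and 10 most positive differences among called protein-coding genes whose mean reached 1 log2 CPM and whose groups exceeded 3 counts, up to 4 called members per list, 5 genes of opposite response and 5 induced and 5 repressed genes without a called difference. Further members were named after their values were seen. Counting error covers sequencing only, and reads carried no molecular identifiers.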

Additional observations from a re-analysis of the deposited data

Results flagged for a closer look

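Among 96 sets of 4 libraries examined for a lone high or low library, 4 had one, where chance alone gives about 1 in 20. FUS2 in treated ∆Ste12 was 7.188 CPM in replicate 1, below the other 3 libraries of its group, which lay between 8.88 and 9.2 CPM. MNN1 in untreated ∆Ste12 was 279.8 CPM in replicate 2, below the other 3 at 388 to 404 CPM. Ribosomal RNA took 2.968% of counts in replicate 3 of untreated WT, above the other 3 libraries of its group. Ty3 features took 0.02783% in replicate 3 of untreated ∆Ste12, against a group mean of 0.0267%.

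The response differed between the strains in 2214 features by the interaction test. Among genes called in opposite directions, the 5 with the largest summed responses had differences of -3.76 for YDR124W, -3.29 for ARO10, 2.86 for MNN1, 2.66 for TMN2 and 2.52 for CLB6, each called by the same test.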

How the results depend on the processing

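The count of called response differences lay between 1490 (batch 1 alone) and 2409 (replicate block by culture) over the alternatives run, against 2214, with 2373 by library totals, 2278 by DESeq2, 1570 without a batch term and 1990 to 2208 when 1 library was left out. The ∆Ste12 response had 1153 calls without a batch term and 1257 in batch 2 alone, against 1986. The strain difference at 0 h had 2662 calls with library totals, 746 without a batch term and 732 in batch 2 alone, against 1389. With a threshold of 0.58 on the batch 4 change, 648 of 923 induced and 457 of 765 repressed genes responded less in ∆Ste12, and with a threshold of 2 the counts were 129 of 143 and 29 of 42. With genes chosen on batch 3, 361 of 476 induced and 136 of 173 repressed genes responded less in ∆Ste12. Leaving out 1 library gave 3399 to 3735 calls for the WT response, 1595 to 2033 for the ∆Ste12 response, 929 to 1555 at 0 h, 3363 to 3676 after alpha-factor and 2658 to 3622 in batch 4. A smaller response in ∆Ste12 was then called for 370 to 380 induced and 124 to 137 repressed genes. The ∆Ste12 response of RDN18-2 turned to 0.14 without a batch term and 0.74 in batch 2 alone, and that of RDN37-2 to 0.48 and 0.75. The cause of these shifts was not tested. Over 165 named genes, 46 had any value past a changed threshold or sign, with 171 values losing and 2 gaining a call of 4441 examined.

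The replicate numbers were not treated as pairs. Deviations of same-numbered libraries, kar4 deletion included, correlated between -0.15 and 0.41. Between 0 h and alpha-factor libraries of WT and of ∆Ste12 the values ran from 0.09 to 0.41. The check uses 1 difference between replicates per batch and so cannot exclude pairing. A replicate block gave 2168 called response differences, or 2409 with the block by culture, 3609 and 3745 for the WT response, 1939 and 2266 for the ∆Ste12 response, 1337 at 0 h, 3618 after alpha-factor and 4156 in batch 4. With these blocks 378 and 382 induced and 136 and 138 repressed genes responded less in ∆Ste12. Libraries of WT, from 4.25 M counts, were smaller on average than those of ∆Ste12, with overlapping ranges. The means at 0 h and after alpha-factor were 7.59 and 8.12 M in WT and 11.2 and 10.7 M in ∆Ste12. Genes at a few counts in ∆Ste12 (FIG1, PRM2, PRM3, PRM6, IME4) have wide errors.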
